A study of Mus musculus with 32 samples.

Results

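The microRNAs miR-126, miR-221 and miR-222 were followed in the mesenteric arteries of mice in which endothelin-1 was overexpressed from the endothelium. All rows of the normalized table whose base name is miR-126, miR-221 or miR-222 were taken, either arm, which gave 6 of the 870 miRNA rows: miR-126-5p, miR-126-3p, miR-221-3p, miR-221-5p, miR-222-3p and miR-222-5p. The rows were picked by name and not by a measured value, but earlier results of these data were known at the time. No row carried the name miR-126a or miR-126b, and the rows named miR-126 are given here under that name.

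The mice were males, 10 to 12 weeks old at the start. Tamoxifen was injected subcutaneously for 5 days at 1 mg/kg/day, and the arteries were collected after a further 16 days, called short term, or 3 months, called long term. Both genotypes carried a tamoxifen-inducible Cre recombinase driven by the Tie2 promoter, and both received tamoxifen. ieCre mice, with this Cre alone, were the controls, and ieET-1 mice also overexpressed endothelin-1, a vasoconstrictor peptide. Each time had 7 ieCre mice and 8 ieET-1 mice. Tie2 is also active in some blood cells, and the libraries came from whole artery freed of fat and veins. In such bulk tissue, fewer endothelial cells and less of a miRNA per cell cannot be told apart. Time and age cannot be told apart, since the long-term mice were older when killed.

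A miRNA gene is transcribed as a precursor that folds into a hairpin, from which a 5p and a 3p strand are cut. The strand kept in the silencing complex pairs with target messenger RNAs, mainly through its seed. The miR-126 gene lies in an intron of Egfl7, a gene of endothelial cells, and is known for its enrichment in endothelium. miR-126-3p represses Spred1 and Pik3r2, inhibitors of growth factor signalling, and the adhesion molecule Vcam1, and miR-126-5p represses the Notch ligand Dlk1. miR-221 and miR-222 come from neighbouring hairpins, share targets such as the receptor Kit and the cell cycle inhibitor Cdkn1b, and are known to restrain the migration of endothelial cells and to promote the growth of vascular smooth muscle cells.

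The mature strands in the RefSeq table (GRCm38.p6) are shown because the shared seed decides how the members group. Capitals mark the seed, bases 2 to 8 from the 5′ end. Mature entries were matched by name for 4 of the 6 rows, with miR-126-3p matched to miR-126a-3p.
miR-126a-3p: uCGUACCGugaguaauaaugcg
miR-221-3p: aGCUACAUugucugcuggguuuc
miR-222-3p: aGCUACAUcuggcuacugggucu
miR-221-5p: aCCUGGCAuacaauguagauuucugu
miR-221-3p and miR-222-3p had the same seed, GCUACAU. It was found in 3 of the 1738 mature entries of the table, the other one being miR-1928. The 2 strands, each of 23 bases, were identical over the first 8 bases and at 11 of 23 positions when aligned from the 5′ end. The seeds of miR-126a-3p and miR-221-5p differed from it and from each other.

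The hairpins show how the arms sit, with capitals for the mature strands that RefSeq annotates.
Mir126a hairpin: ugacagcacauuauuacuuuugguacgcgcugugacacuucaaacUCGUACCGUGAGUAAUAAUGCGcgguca
Mir221 hairpin: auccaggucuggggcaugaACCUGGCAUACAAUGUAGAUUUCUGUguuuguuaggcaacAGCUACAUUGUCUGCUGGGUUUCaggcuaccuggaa
Mir222 hairpin: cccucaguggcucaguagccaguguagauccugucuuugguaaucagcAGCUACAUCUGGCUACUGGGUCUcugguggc
Mir126a lies at chr2:26591357-26591429 on the plus strand, within Egfl7 and also within Gm20532, another annotated gene of that strand. In GENCODE M21 it overlaps no exon of a protein-coding Egfl7 transcript and lies in an exon of a retained-intron transcript of that gene. Mir126b lies on the opposite strand within the same bases, at chr2:26591363-26591420. Mir221, at chrX:19146294-19146388, and Mir222, at chrX:19146893-19146971, lie on the minus strand, 504 bases apart, and no other annotated gene overlaps either.

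The ieCre short-term library 8 and the ieET-1 short-term library 258 were nearly identical, with a Pearson correlation of log2 values of 0.9999, against 0.9942 for the next of 435 library pairs, so short-term results are also given without both. The animal numbers in the labels fall into ranges, with 8 short-term mice below 1000 and 7 at 8000 or above, while at long term 9 mice carried numbers in the 8000s and 6 in the 9000s. The labels do not say what these ranges stand for. Depth ranged from 1820166 to 35531345 miRNA reads per library.

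The 6 strands spanned over 4 orders of size in abundance. miR-126-5p held 1.43% of all miRNA reads on average and ranked 9 of 870, and miR-126-3p held 0.0784% and ranked 42. miR-221-3p ranked 94 and miR-222-3p 136, with 0.00722% and 0.00264% of the reads. miR-221-5p ranked 240 and miR-222-5p 413. miR-143-3p, a miRNA of smooth muscle, ranked 1 with 45.5% of the reads. Counts of a miRNA strand are not corrected for capture in the library, so an order between strands is an order of reads.

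miR-126-5p had normalized values, each proportional to the reads of its library, of 5419 at the lowest, 12225 at the median and 37723 at the highest in ieCre mice at short term. The same 3 values were 5474, 9321 and 21483 in ieET-1 mice at short term. They were 5065, 11419 and 13818 in ieCre mice and 7850.2, 11455 and 26269.5 in ieET-1 mice at long term. The 4 groups overlapped over most of their range, and the 3 ieCre short-term mice numbered 8000 or above held 3 of the 4 highest values.

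miR-126-3p, the strand with the named repressed targets Spred1 and Vcam1, had a lowest, median and highest normalized value of 339.6, 661 and 1333 in ieCre and of 465, 670.4 and 959.7 in ieET-1 mice at short term. At long term these were 404, 639.6 and 1059 in ieCre and 402, 513 and 1037 in ieET-1 mice. The ieET-1 short-term values lay inside the range of the ieCre short-term values, and the long-term groups overlapped almost entirely.

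miR-221-3p had a lowest, median and highest normalized value of 48.4, 52.7 and 92.4 in ieCre and of 52.3, 60.2 and 73.4 in ieET-1 mice at short term. At long term the values were 40.6, 71.3 and 93.9 in ieCre and 46.7, 70.3 and 108 in ieET-1 mice. Both long-term medians lay above both short-term medians, within ranges that overlapped. miR-222-3p, its seed partner, had 13.4, 22.8 and 32.3 in ieCre and 15.8, 27.95 and 34.1 in ieET-1 mice at short term, and 21.4, 22.9 and 27.9 and 19.1, 20.8 and 30.1 at long term. Its short-term values spread over a wider range than its long-term values in both genotypes.

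miR-221-5p, the minor strand of miR-221, had a lowest, median and highest normalized value of 0.744, 2.16 and 5.41 in ieCre and of 1.62, 2.88 and 5.81 in ieET-1 mice at short term. At long term these were 0.350, 7.85 and 11.5 in ieCre and 0.351, 2.17 and 6.395 in ieET-1 mice. Among the 7 ieCre long-term mice, 9485 had 11.5, 8089 had 11.1, 8088 had 9.05, 9486 had 7.85, 9487 had 5.22, 8149 had 4.10 and 9491 had 0.350. Among the 8 ieET-1 long-term mice, 9489 had 6.395, 8135 had 4.72, 9490 had 3.33, 8136 had 3.08, 8151 had 1.27, 8152 had 0.647, 8150 had 0.561 and 8134 had 0.351. The long-term groups overlapped, and 4 of the ieCre mice lay above every ieET-1 mouse. The lowest values of both groups were 1 read each, for which the exact 95% Poisson interval runs from 0.0253 to 5.57 reads and covers counting error only. On the normalized scale that is 0.00886 to 1.95 for ieCre 9491. miR-222-5p was at or below 0.917 in every library, with 0 reads in 5 of the 30, and was not tested.

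**Figure D1:**
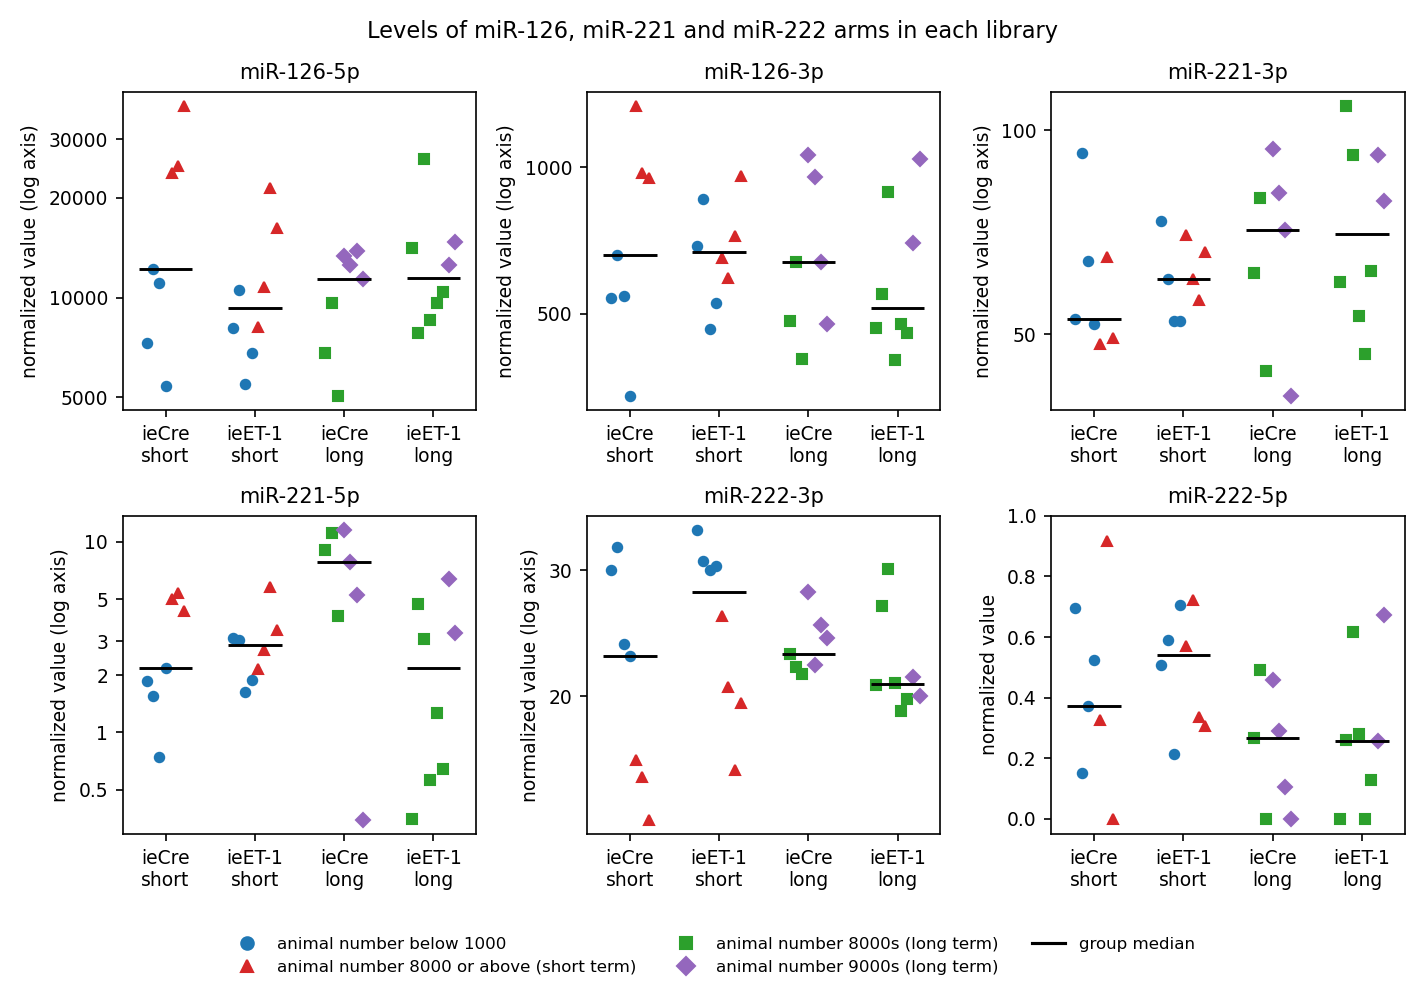
Normalized value of each of the 6 strands (vertical axis, logarithmic except for miR-222-5p) in each library of the 4 groups (horizontal axis). Each symbol is 1 mouse, its shape and colour give the range of its animal number, and the bar is the group median. For miR-126-5p and miR-222-3p the short-term mice numbered 8000 or above lie to opposite ends.

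To ask whether endothelin-1 overexpression changed these miRNAs, ieET-1 mice were compared with ieCre mice at each time. At short term 0 of the 5 members tested passed, where percent called over all 354 miRNAs tested was 0. The log2 change of ieET-1 against ieCre was -0.52 ± 0.35 (SE) for miR-126-5p, -0.07 ± 0.26 for miR-126-3p, 0.04 ± 0.20 for miR-221-3p, 0.07 ± 0.41 for miR-221-5p and 0.25 ± 0.19 for miR-222-3p, with a limma adjusted p of 0.990 for each. The median over all miRNAs tested was -0.04. The 95% intervals ran from -0.60 to 0.47 for miR-126-3p and from -0.37 to 0.45 for miR-221-3p, and that of miR-126-5p, from -1.24 to 0.21, still held a change of more than 2-fold down. Over all miRNAs, limma found 9 at an unadjusted p below 0.05, none of them a member, and edgeR and DESeq2 on the recovered reads also called 0, with 9 and 12 at that level. Without the near-identical pair, 0 members passed and the changes were -0.60 for miR-126-5p, -0.08 for miR-126-3p, 0.05 for miR-221-3p, 0.07 for miR-221-5p and 0.30 for miR-222-3p.

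At long term, 0 of the 5 members passed, with percent called again 0. The log2 change was 0.30 ± 0.35 for miR-126-5p, -0.09 ± 0.26 for miR-126-3p, 0.14 ± 0.20 for miR-221-3p and -0.09 ± 0.19 for miR-222-3p, with limma adjusted p-values from 0.948 to 0.973. For miR-221-5p it was -1.17 ± 0.41, a fold of 0.445 on the log2(value + 1) scale, with a 95% interval from -1.999 to -0.33, and it missed the threshold after adjustment over all miRNAs (limma adjusted p = 0.688). miR-221-5p was the 1 member among the 20 miRNAs of 354 that limma found at an unadjusted p below 0.05. edgeR gave -1.42 (adjusted p = 0.522) and DESeq2 -1.33 (adjusted p = 0.464), and both called 0 miRNAs, with 27 and 25 at an unadjusted p below 0.05. Within the 9 mice numbered in the 8000s the limma log2 change of miR-221-5p was -1.84 (adjusted p = 0.149), and within the 6 in the 9000s, 4 ieCre against 2 ieET-1, it was 0.04 (adjusted p = 0.981). The value in the 9000s rested on ieCre 9491, the library with 1 read. Without it, in a fit added after the data were seen, the change in the 9000s was -0.64 (adjusted p = 0.572), of the same sign as in the 8000s. Over all long-term mice without ieCre 9491 it was -1.55 (adjusted p = 0.0529), and over all alternatives the adjusted p ran from 0.0529 to 0.981.

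The difference between the genotype effects at the 2 times was tested as an interaction in the same fit. It was -1.24 ± 0.58 for miR-221-5p (limma adjusted p = 0.602) and 0.82 ± 0.50 for miR-126-5p (adjusted p = 0.655). 0 of 5 members passed, with percent called 0, and limma found 24 of 354 miRNAs at an unadjusted p below 0.05 while edgeR and DESeq2 called 0, with 28 and 35 at that level.

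The long-term mice were also compared with the short-term mice of the same genotype. In ieCre mice 0 of 5 members passed, where limma called 7.91% of all miRNAs, 28 of 354. The log2 change was 0.87 ± 0.42 for miR-221-5p (limma adjusted p = 0.184), -0.54 ± 0.37 for miR-126-5p (adjusted p = 0.348) and 0.16 ± 0.20 for miR-222-3p (adjusted p = 0.600). The value for miR-221-5p was 1.26 without ieCre long-term 9491 (adjusted p = 0.0313, the lowest over its alternatives, with 0.917 the highest), so the call depended on that library. With animal-number range added to the fit, miR-126-5p fell by 1.31 on the log2 scale (adjusted p = 0.00328) and miR-222-3p rose by 0.56 (adjusted p = 0.0131), where percent called was 20.1. The change of miR-126-5p also passed in mice numbered 8000 or above (-1.52, limma adjusted p = 0.0308) and with total scaling (-1.62, adjusted p = 0.00536). Percent called was 5.93 and 60.2 there. With total scaling miR-222-3p passed in the opposite direction, at -0.87 (limma adjusted p = 0.0421). That scaling lowered the median log2 change of all tested miRNAs, as given below. Over the alternatives the adjusted p ran from 0.00328 to 0.601 for miR-126-5p and from 0.0131 to 0.860 for miR-222-3p. In ieET-1 mice 0 of 5 members passed, where percent called was 5.93, and the log2 change was 0.28 ± 0.34 for miR-126-5p and -0.36 ± 0.39 for miR-221-5p (adjusted p = 0.625 and 0.568). limma found 92 and 83 miRNAs at an unadjusted p below 0.05 in ieCre and in ieET-1 mice. edgeR called 8.47% and 10.7% of all miRNAs and DESeq2 12.4% and 13%, with 0 members among the calls of either tool.

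**Figure D2:**
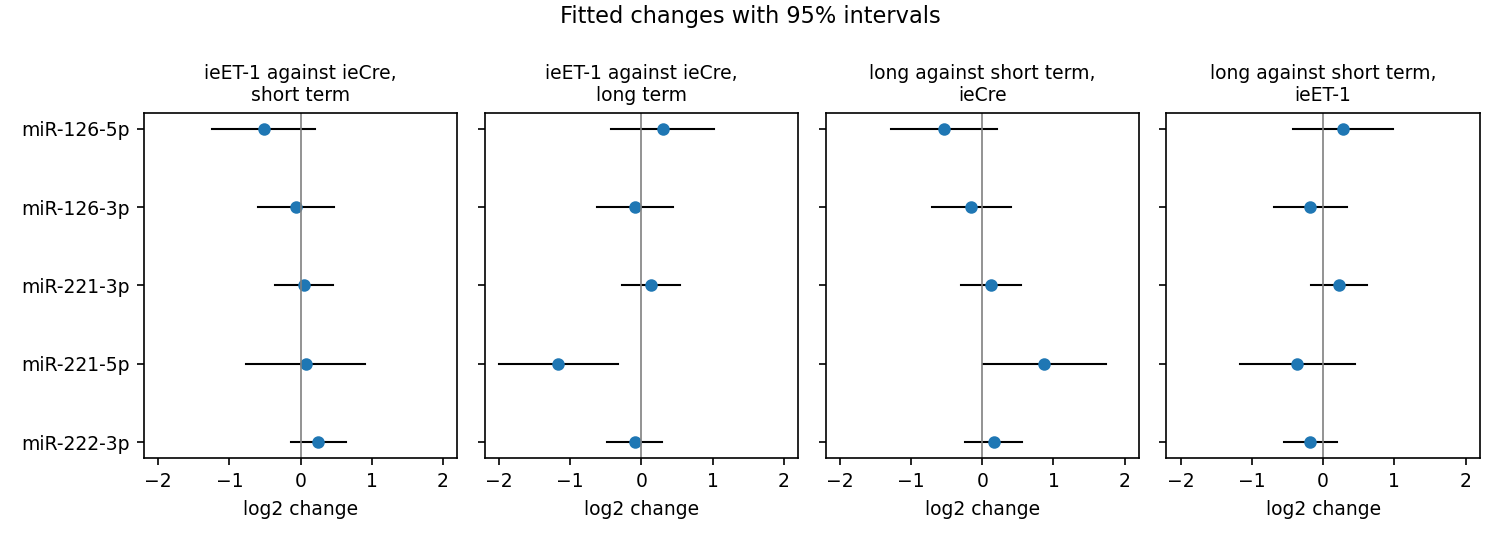
Log2 change (horizontal axis) of the 5 tested members in the 2 genotype and 2 time comparisons, as fitted by limma on log2(value + 1). Points are estimates, lines are 95% intervals and the grey line is no change. The interval of miR-221-5p at long term, from -1.999 to -0.33, lies left of 0 but its adjusted p is 0.688.

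Ratios of reads within a library do not depend on the scaling of that library. The 5p strand of miR-126 outnumbered the 3p strand in all 30 libraries, by 11.7-fold at the lowest, 17.3-fold at the median and 39.7-fold at the highest, so that 92.1% to 97.5% of miR-126 reads were 5p. In miR-221 and miR-222 the 3p strand prevailed, with 87.2% to 99.4% of miR-221 reads and 94.4% to 100% of miR-222 reads. The 2 seed partners also kept an order. miR-221-3p had more reads than miR-222-3p in every library, by 1.68-fold to 4.31-fold with a median of 2.87-fold.

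By group, the median ratio of miR-126-5p to miR-126-3p was 18.5 in ieCre and 12.7 in ieET-1 mice at short term, and 14.2 and 20.7 at long term. The median ratio of miR-221-3p to miR-222-3p was 2.86 and 2.43 at short term and 2.83 and 3.09 at long term. The median ratio of miR-221-5p to miR-221-3p was 0.0418 and 0.0436 at short term and 0.0973 and 0.0303 at long term. The groups overlapped in each of these ratios.

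Across 6 ratios and the 4 genotype and time comparisons, 0 of 24 exact permutation tests (two-sided) passed after Benjamini-Hochberg adjustment, with 3 at an unadjusted p below 0.05. The ratio of miR-221-5p to miR-221-3p at long term was lower in ieET-1 than in ieCre mice by a log2 difference of -1.70 (exact permutation p = 0.0171, adjusted p = 0.332). Its mean log2 ratio was -5.32 ± 1.103 (SD, n = 8) in ieET-1 and -3.63 ± 1.22 (n = 7) in ieCre mice. It was -2.71 within the 8000s and -0.09 within the 9000s (exact permutation adjusted p = 0.0952 and 0.933). The -0.09 rested on ieCre 9491, without which the 9000s, 3 ieCre against 2 ieET-1 mice, gave -0.82, where an exact permutation test cannot go below 0.1. Without ieCre 9491 it was -2.14 (exact permutation adjusted p = 0.0320), and with 5 reads added to each strand in place of 0.5 it was -1.50 (exact permutation adjusted p = 0.0224), so 1 library and the pseudocount decided this call. The other end of its alternatives was the adjusted p of 0.933 within the 9000s. The miR-126 arm ratio differed by -0.45 at short term and by 0.39 at long term (exact permutation adjusted p = 0.351 and 0.332).

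**Figure D3:**
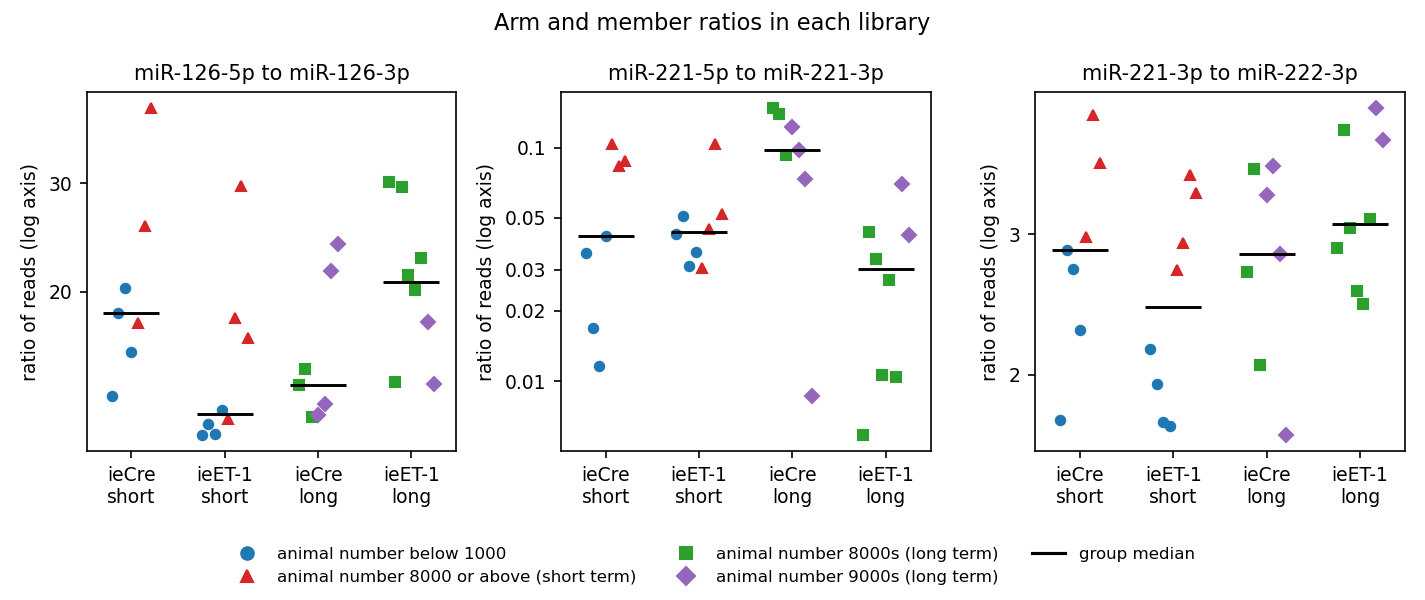
Ratio of reads (vertical axis, logarithmic) of miR-126-5p to miR-126-3p, miR-221-5p to miR-221-3p and miR-221-3p to miR-222-3p in each library of the 4 groups. Symbols give the range of animal number and bars the group median. The miR-126 ratios start at 11.7 and the miR-221 arm ratios end at 0.147.

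The ranges of animal number were also compared, after the data were seen. At short term, with genotype as a term, 4 of 5 members differed between mice numbered 8000 or above and mice below 1000, where limma called 27.7% of all miRNAs, 98 of 354, with 10.2% higher and 17.5% lower. edgeR and DESeq2 also called 4 members each, where they called 27.1% and 31.1% of all miRNAs. With total scaling only miR-222-3p passed (log2 change -1.12, adjusted p = 0.00407), where percent called was 35.3. At the higher numbers miR-126-5p was 2.35-fold higher (log2 change 1.23 ± 0.27, adjusted p = 0.00306), miR-126-3p 1.53-fold (adjusted p = 0.0406) and miR-221-5p 1.70-fold (adjusted p = 0.0149), while miR-222-3p was at 0.616-fold (log2 change -0.70 ± 0.15, adjusted p = 0.00306). miR-221-3p, which shares its seed with miR-222-3p, had a log2 change of -0.06 ± 0.17 (adjusted p = 0.798). The miR-222-3p values ran from 22.8 to 34.1 with a median of 30.2 below 1000 and from 13.4 to 25.9 with a median of 16.3 at 8000 or above, and those of miR-126-5p from 5419 to 12225 with a median of 7684 and from 8128 to 37723 with a median of 21483. The call of miR-126-3p was the least stable. It was lost without the near-identical pair (adjusted p = 0.111), with TMM scaling (0.0585), and in 10 of the 15 fits that left out 1 library (adjusted p up to 0.102), which were ieCre 8, 931, 932, 8754, 9955 and 9957 and ieET-1 257, 258, 8991 and 8992. The other called members kept their call in all 15. Of the 7 higher-numbered mice, 1 lay within the range of the lower-numbered mice for miR-222-3p and 2 for miR-126-5p. Without the near-identical pair 3 members passed, where percent called was 19.2, and the log2 change was 1.18 for miR-126-5p and -0.68 for miR-222-3p (adjusted p = 0.0174 and 0.0175).

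Within ieCre mice alone, 3 against 4, 2 members passed, with log2 changes of 1.72 for miR-126-5p (limma adjusted p = 0.0224) and 1.23 for miR-221-5p (adjusted p = 0.0462). The changes there were 1.08 for miR-126-3p (adjusted p = 0.0635) and -0.80 for miR-222-3p (adjusted p = 0.109). Within ieET-1 mice alone, 4 against 4, the changes were 0.82 for miR-126-5p (adjusted p = 0.0996) and -0.61 for miR-222-3p (adjusted p = 0.0533), and 0 members passed. The changes of miR-221-5p and miR-126-3p were smaller there than in ieCre mice, at 0.37 and 0.22 (limma adjusted p = 0.35 and 0.577). Percent called was 5.93 and 18.4 in these 2 fits. At long term 0 of 5 members passed between the 9000s and the 8000s, where limma called 7.34%, edgeR 11.6% and DESeq2 15.3% of all miRNAs, none of them a member, with log2 changes of 0.64 ± 0.23 for miR-126-3p (adjusted p = 0.0775) and 0.57 ± 0.27 for miR-126-5p (adjusted p = 0.170). Without ieET-1 8136, whose miR-126-5p of 26269.5 was the highest at long term, both passed (0.71 and 0.69, adjusted p = 0.0319 and 0.0284), and without ieCre 9491 miR-126-3p did (0.75, adjusted p = 0.0415). With total scaling 4 members passed, where percent called was 52.

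Ratios showed the same split at short term, in tests that pooled the genotypes without genotype as a term. The ratio of miR-221-3p to miR-222-3p ran from 1.72 to 2.86 with a median of 2.05 below 1000, and from 2.71 to 4.23 with a median of 3.38 at 8000 or above, a log2 difference of 0.65 (exact permutation p = 0.00124, adjusted over 12 range tests 0.00746). The ratio of miR-222-3p to miR-126-3p differed by -1.32 (exact permutation adjusted p = 0.00373). In all, 5 of 6 ratios passed at short term, and 4 without the near-identical pair, where the miR-126 arm ratio did not (exact permutation adjusted p = 0.0456 with the pair and 0.115 without). At long term 2 of 6 passed, those of miR-221-3p and miR-222-3p to miR-126-3p (log2 difference -0.42 and -0.55, exact permutation adjusted p = 0.0352 for both). There the 9000s held 4 ieCre and 2 ieET-1 mice and the 8000s 3 and 6, so range and genotype were partly mixed. Within genotypes these 2 differences were -0.39 and -0.41 in ieCre and -0.37 and -0.84 in ieET-1 mice. With 1 genotype alone the tests were too small for a count of calls to be read, since at 3 against 4 or 4 against 4 mice the smallest exact p is 0.0286 before adjustment. The log2 difference of miR-221-3p to miR-222-3p was then 0.60 in ieCre and 0.73 in ieET-1 mice at short term, with no overlap between the ranges in either genotype. That of miR-222-3p to miR-126-3p was -1.92 and -0.86. Not every ratio that passed at short term was split alike in both genotypes. The log2 difference of miR-221-3p to miR-126-3p was -1.32 in ieCre and -0.13 in ieET-1 mice, and that of the miR-221 arms was 1.95 and 0.41. The miR-126 arm ratio differed by 0.64 and 0.60.

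**Figure D4:**
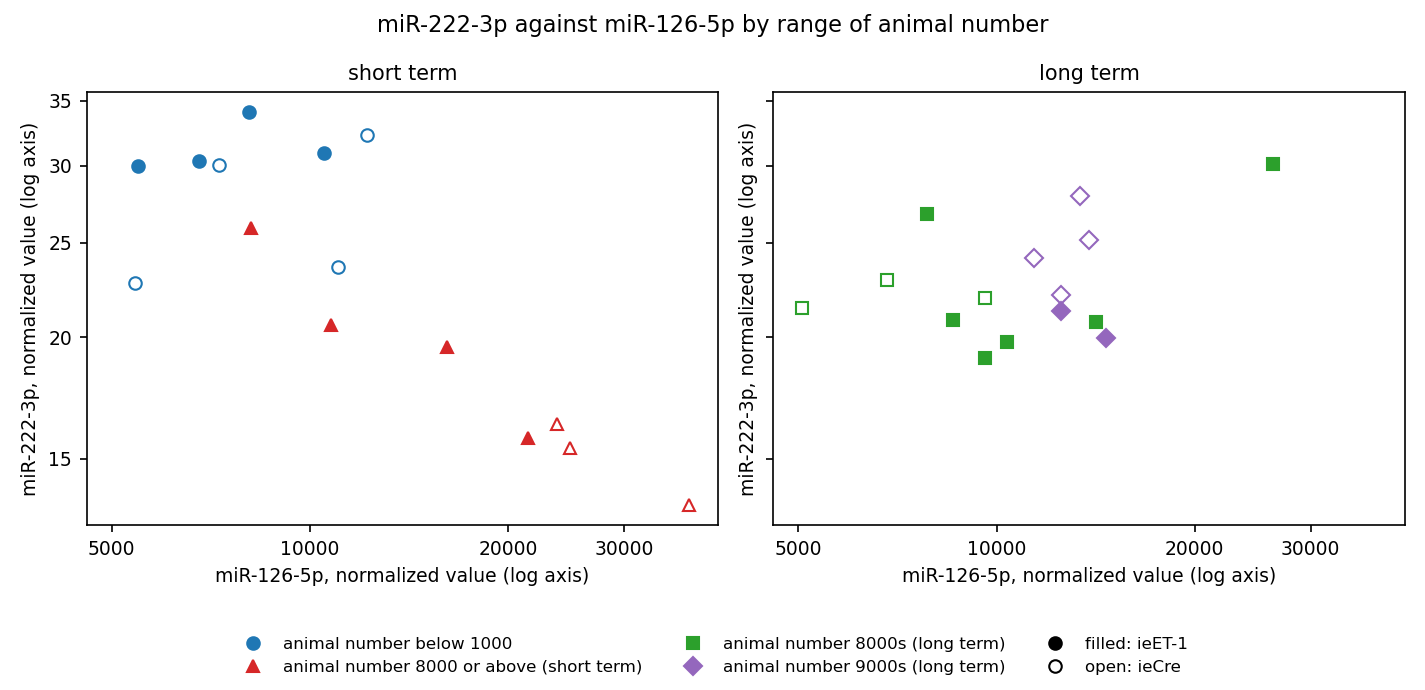
Normalized value of miR-222-3p against that of miR-126-5p (both axes logarithmic) at short term (left) and long term (right). Each symbol is 1 mouse, with shape and colour for the range of animal number and filled symbols for ieET-1. At short term the mice at 8000 or above run down to 13.4 for miR-222-3p and up to 37723 for miR-126-5p. Both of these values belong to ieCre 9957, the library with the fewest reads (1820166), where miR-222-3p had 28 reads.

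Rows listed for other cell types were also compared between the ranges at short term. Of the 6 erythroid rows, 4 were called higher at the higher numbers, where 10.2% of all miRNAs were. They were miR-144-3p (log2 change 2.45), miR-144-5p (0.86) and miR-486-5p, listed in 2 rows with nearly the same reads (1.49 each). miR-451a (0.56, limma adjusted p = 0.246) and miR-486-3p (-0.35, adjusted p = 0.203) did not pass. The summed erythroid value, in which both miR-486-5p rows are counted, ran from 42135 to 311620 against 5549 to 95790. None of the 6 was at 0 in all libraries of a range. The summed smooth muscle rows ran from 195656 to 700247 against 210992 to 397684, and 1 of 4 was called in each direction. The sum of all 8 leukocyte rows ran from 125.7 to 372 against 143 to 206, with 0 of the 6 tested called. Of 6 tested adipose rows 1 was called higher and 2 lower, and the sum of all 9 adipose rows ran from 511 to 1034 against 799.6 to 1244. Of 9 tested epithelial rows 1 was called in each direction, and the sum of all 18 epithelial rows ran from 487 to 1212 against 338 to 609. Of 3 tested striated muscle rows 1 was called higher, and 0 of 5 neural and 0 of 4 pancreatic rows were called. The part of these other miRNAs in the members' differences was not tested.

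The change between the ranges was also related to base composition. Over the 299 tested miRNAs with a RefSeq sequence, 84.5% of those tested, Spearman's rho between GC content and the short-term log2 change was -0.454 across miRNAs, which are not independent and share their libraries. miRNAs called higher at the higher numbers had a median GC content of 41.7% and those called lower 54.5%. The members lay along this order, with 38.5% for miR-221-5p, 45.5% for miR-126-3p, 47.8% for miR-221-3p and 52.2% for miR-222-3p. The part of GC content in the members' differences was not tested. For the genotype comparisons rho was 0.162 at short term and -0.0711 at long term.

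**Figure D5:**
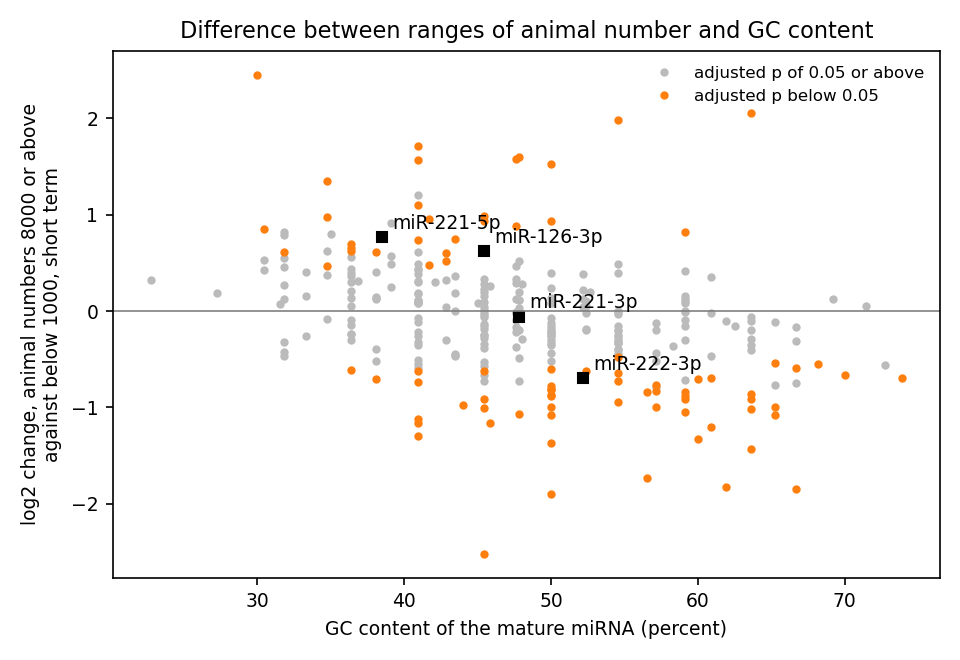
Log2 change between mice numbered 8000 or above and below 1000 at short term (vertical axis) against GC content in percent (horizontal axis), 1 point per miRNA with a RefSeq sequence. Orange points have a limma adjusted p below 0.05, and black squares mark the 4 members with a sequence, which go from 0.76 for miR-221-5p at 38.5% to -0.70 for miR-222-3p at 52.2%.

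Co-variation was measured across the 30 mice on log2(value + 1) with each group's mean removed. Of the 10 pairs of tested members, 6 passed on Pearson's r after Benjamini-Hochberg adjustment over the pairs, and 4 to 8 over the alternatives. The median r over all pairs of tested miRNAs was 0.03, but it was 0.39 with total scaling, the alternative that gave 8. The arms of miR-126 went together (Pearson r = 0.78, permutation p = 2e-05, adjusted p = 0.0002; Spearman rho = 0.79, permutation p = 1e-05, the smallest that the permutations can give), with r from 0.69 to 0.90 within each group. r was 0.73 without ieCre short-term 8754 and 932, the mice farthest from the median, and 0.65 with the mean of each range of animal number removed as well.

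The arms of miR-221 had r = 0.57 and rho = 0.53 (permutation adjusted p = 0.0216 and 0.0233), and r was 0.58 without the 2 farthest mice and 0.73 within ranges. By group it was 0.84 in both long-term groups, -0.42 in ieCre and 0.19 in ieET-1 mice at short term. The seed partners miR-221-3p and miR-222-3p had r = 0.38 and rho = 0.38 (permutation adjusted p = 0.0360 and 0.0416), 0.32 without the 2 farthest and 0.59 within ranges. By group this r was 0.54 in ieCre and 0.096 in ieET-1 mice at short term, and 0.38 and 0.72 at long term. miR-126-3p also went with miR-221-5p (r = 0.62, rho = 0.67, permutation adjusted p = 0.0035 and 0.0016) and with miR-221-3p (r = 0.47, rho = 0.51, permutation adjusted p = 0.0360 and 0.0233). These 2 values were 0.65 and 0.58 without the 2 farthest mice, and 0.58 and 0.65 within ranges. By group the r with miR-221-5p ran from 0.54 to 0.73. That with miR-221-3p was -0.11 in ieCre and 0.53 in ieET-1 mice at short term, and 0.87 and 0.62 at long term. Without the near-identical pair the relation of miR-126-3p to miR-221-3p no longer passed (r = 0.45, permutation adjusted p = 0.0618).

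miR-126-5p and miR-222-3p went in opposite directions, with r = -0.51 and rho = -0.47 (permutation adjusted p = 0.0360 and 0.0416). r was -0.80 and -0.85 in the short-term ieCre and ieET-1 groups but 0.64 and 0.45 in the long-term groups. It was -0.44 without the 2 farthest mice and 0.05 within ranges of animal number (permutation adjusted p = 0.861), so the relation did not hold within ranges. It also did not pass without the near-identical pair (r = -0.44, permutation adjusted p = 0.0995).

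The miRNAs most like each member were taken as the 5 others with the highest r over the 30 mice, group means removed, as a description. For miR-126-3p they were miR-15a-5p (r = 0.88), miR-30d-5p, miR-186-5p, miR-10b-3p and miR-26b-5p. miR-126-5p was most like miR-186-5p (r = 0.93), followed by miR-99a-5p, miR-338-3p, miR-30e-5p and miR-144-3p, an erythroid miRNA. For miR-221-3p they were miR-203-3p (r = 0.67), miR-20a-5p, miR-26b-5p, miR-133a-3p and miR-151-5p. miR-221-5p was most like miR-145a-3p (r = 0.88), a strand of a smooth muscle miRNA, and then miR-n6, miR-409-5p, miR-3082-3p and miR-99b-5p. For miR-222-3p they were let-7b-5p (r = 0.74), miR-320-3p, miR-382-5p, let-7e-5p and miR-652-3p, and within ranges of animal number the r of let-7b-5p was 0.13. The members themselves were left out when these lists were made.

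Among 26 tested miRNAs of a list of other endothelial and angiogenic miRNAs, 0 passed in either genotype comparison, with a median log2 change of -0.03 at short term and 0.01 at long term against -0.04 and -0.01 over all 354. 0 passed between the times in ieCre mice. In ieET-1 mice miR-23b-3p, which is transcribed with miR-27b and miR-24, was higher at long term by 0.54 on the log2 scale (limma adjusted p = 0.0429), where 1.98% of all miRNAs were called higher. Between the ranges at short term 3 of 26 were higher at the higher numbers and 2 lower, where 10.2% and 17.5% of all miRNAs were. They were miR-100-5p (log2 change 1.52, limma adjusted p = 0.00234), miR-10a-5p (0.75), miR-218-5p (0.61), miR-132-3p (-0.88) and miR-181b-5p (-1.17). Between the ranges at long term miR-155-5p (0.98) and miR-16-5p (0.92) were higher in the 9000s, where 2.26% of all miRNAs were called higher. In that comparison 2 of the 6 tested leukocyte rows were called higher, and miR-155-5p was itself among them. The summed value of all 8 leukocyte rows ran from 147 to 307 against 103 to 199. Their part in these differences was not tested.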

How the data were processed

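Small RNA was sequenced from mesenteric arteries with 1 library per labelled mouse. 30 of 32 labelled mice were analysed, and 2 ieCre mice, 1 per time, were not analysed here. The authors deposited 1 normalized signal per miRNA and library. Per the submitters' processing notes, the tools included STAR 2.3.1, edgeR 3.6.8, R 3.2.3 and bcl2fastq 1.8.4, with no role given. Neither build nor miRNA annotation is given in the sources used here. Each deposited signal was a whole multiple of the value of 1 read (0.0178 to 0.480) in 100% of values within 0.001, so reads were recovered. Depth was 1820166 to 35531345 reads per library.

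A miRNA entered the tests with a value of 1 or more in 8 or more libraries (354 of 870). That value stands for 3 to 57 reads. Of the members 5 of 6 passed this filter. limma 3.58.1 (R 4.3.3) was fitted with an intensity trend to log2(value + 1) and 4 group means, two-sided, with Benjamini-Hochberg adjustment over all tested and a threshold of 0.05. Folds are on that scale, which understates changes of low miRNAs. Whether mice share a litter or a day is not given, so p-values measure the spread between libraries. edgeR 4.0.16 and DESeq2 1.42.0 on the recovered reads were alternatives. Ratios used log2((reads + 0.5)/(reads + 0.5)) and exact permutation tests, and correlations 100000 permutations. Python 3.11.15, scipy 1.17.1 and matplotlib 3.10.9 were used, and the fits were tested on simulated data.

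All members were named. Of the other miRNAs, the 5 most alike each member, the called members of the endothelial list and the most abundant could be named. The members and lists were chosen with earlier results of these data known. The comparisons of ranges of animal number and of GC content were added after the data were seen. Alternatives were other scalings, pseudocounts, filters, tools and terms, and leaving out libraries.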

Additional observations from a re-analysis of the deposited data

Results flagged for a closer look

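Each group of 7 or 8 mice was screened for a highest or lowest library far from its neighbour, for levels and ratios of the members, 44 groups in all. Chance flags about 1 in 20 groups, and 4 were flagged. miR-221-5p in ieCre long-term 9491 was at 0.43 on the log2(value + 1) scale, from 1 read, against 2.35 for the next lowest mouse. The log2 ratio of miR-221-5p to miR-221-3p in the same library was -6.28, against -3.76 for the next lowest. The log2 ratio of miR-126-5p to miR-126-3p in ieET-1 short-term 8991 was 4.89, against 4.18 for the next highest. In that library the log2 ratio of miR-221-5p to miR-221-3p was -3.26, against -4.26 for the next highest. The cause was not tested.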

How the results depend on the processing

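No paired analysis was possible because the animal numbers do not repeat between groups. In both genotype comparisons, their interaction and the time comparison in ieET-1 mice, 0 members were called under every alternative run. Scaling to total reads moved the median log2 change of all tested miRNAs to -0.20 and 0.31 (genotype, short and long term), -0.93 and -0.47 (time, ieCre and ieET-1), and -0.46 and 0.72 (ranges, short and long term), and member changes below are to be read against these shifts. The cause of the changes below was not tested.

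Members called between the times in ieCre mice were 4 with total scaling (60.2% of all miRNAs called), 2 with range as a term (20.1%) and 1 at 8000 or above (miR-126-5p, 5.93%). The count was 0 to 1 leaving out each library. Between the short-term ranges 1 was called with total scaling (miR-222-3p), 2 in ieCre and 0 in ieET-1 mice (3 to 4 leaving out each library). Between the long-term ranges 4 were called with total scaling (0 to 2 leaving out each library). Ratio calls were 1 with 5 reads added (0 to 1 leaving out each library), and 0 between ranges at either time with 1 genotype, in tests too small to be read as lost calls.

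Total scaling turned the sign between genotypes of miR-221-3p (-0.15) and miR-221-5p (-0.083) at short term and of miR-126-3p (0.33) and miR-222-3p (0.30) at long term. Between times it turned miR-222-3p in ieCre mice (-0.87, limma adjusted p = 0.0421) and miR-126-5p in ieET-1 mice (-0.19). It turned r with miR-222-3p to 0.64 for miR-126-3p, 0.34 for miR-126-5p and 0.32 for miR-221-5p, where the median r over all pairs was 0.39. Within ranges the r of these pairs was 0.42, 0.046 and 0.27, where that median was 0.03. Other scalings and tools turned miR-126-3p (0.038, TMM) and miR-221-5p (-0.049 edgeR, -0.027 array weights) between genotypes at short term, miR-221-3p at long term (-0.051, array weights) and between short-term ranges (0.037 edgeR, 0.020 DESeq2, 0.091 in ieET-1 mice).

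The range as a term turned miR-126-3p between genotypes (0.051 and 0.079 at short and long term) and miR-126-5p between times in ieET-1 mice (-0.39, and -0.13 at 8000 or above). Depth as a term turned miR-221-3p (-0.062) and miR-221-5p (-0.24) at short term. Within ranges the genotype change turned below 1000 for miR-126-3p (0.29) and miR-221-3p (-0.10), at 8000 or above for miR-221-5p (-0.45), in the 8000s for miR-126-3p (0.061) and miR-222-3p (0.029), and in the 9000s for miR-126-3p (0.19) and miR-221-5p (0.037). Log2 ratios turned for miR-126 arms in the 9000s (-0.10), and for miR-221 arms at short term (-0.11 with 5 reads, -0.82 at 8000 or above) and between times in ieCre mice (-0.20 at 8000 or above).

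Leaving out each library gave genotype changes at short term of -0.24 to 0.088 (miR-126-3p), -0.0049 to 0.15 (miR-221-3p) and -0.11 to 0.21 (miR-221-5p), at long term of -0.21 to 0.034 (miR-126-3p), and a short-term range change of -0.10 to 0.028 (miR-221-3p). Log2 ratios ran from -0.20 to 0.30 (miR-221 arms, genotype at short term) and from -0.16 to 0.077 (miR-221-3p to miR-222-3p, time in ieCre mice). None of these main values was called.

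Depth limits miR-221-5p, at 1 to 249 reads, and miR-222-5p, at 0 to 39 reads.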
